A study of Mus musculus with 26 samples.

Results

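The genes described here encode 6 metabotropic glutamate receptors (Grm2, Grm3, Grm4, Grm5, Grm7 and Grm8) and the 2 subunits of the GABA-B receptor (Gabbr1 and Gabbr2). They are the 8 rows of the deposited RPKM table with these gene symbols, out of 38828 rows, and the Ensembl identifier links each to its row of the count table. All 8 passed the filter on low counts that left 17411 genes for testing. The RNA came from fluorescent neurons sorted from dissociated dorsal root ganglia of mice aged 23 days or more. There were 8 sensory neuron subtypes and 26 libraries, 5 of Aβ RA-LTMRs and 3 of each other subtype. Every library pooled neurons of several mice and several sorts, so p-values measure the spread between such pools.

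The A-fibre subtypes were 4 low-threshold mechanoreceptors (LTMRs) and proprioceptors. Aδ-LTMRs carried TrkBCreER with R26tdtomato(Ai14), after tamoxifen at 2 mg per day on embryonic days 12 to 13. Aβ RA-LTMRs carried Npy2r-GFP. Aβ SA1-LTMRs and Aβ Field-LTMRs both carried TrkCCreER with Retf(GFP). Tamoxifen was given at 3 mg per day before birth for Aβ SA1-LTMRs and at 2 mg per day on postnatal days 13 to 14 (or 14 to 15) for Aβ Field-LTMRs. Proprioceptors carried PVIRESCre with Ai14 and came from thoracic ganglia alone. The subtypes called small-fibre here were C-LTMRs, which carried ThCreER with Ai14 and had tamoxifen as the Aβ Field-LTMRs did, peptidergic nociceptors (CGRP-GFP) and nonpeptidergic nociceptors (MrgD-EGFP). Reporter line, tamoxifen schedule and subtype cannot be told apart.

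Total counts per library ran from 10706522 to 66309214, and the lowest was Aβ Field-LTMR library 2. Duplicates made up 59.0% (C-LTMR library 1) to 76.9% (Aβ SA1-LTMR library 2) of mapped reads. Their part in the low counts given below was not tested. Aδ-LTMR libraries 1 and 2 stood apart, with mapping rates of 61.4% and 74.5% and their own range of read lengths. All 3 Aβ SA1-LTMR libraries and Aβ RA-LTMR libraries 1 to 3 formed another read-length class, apart from the remaining libraries, so that for Aβ SA1-LTMRs this class and the subtype cannot be told apart. As a covariate, the class was estimated from the Aβ RA- and Aδ-LTMR libraries, which hold more than one. The share of exonic reads was lowest, at 45.7%, in Aβ RA-LTMR library 5. Mrgprd, Calca, Th, Ntrk2 and Pvalb were each highest on the mean in the subtype whose reporter uses them. Ntrk2 in Aδ-LTMRs (423.6 to 643.5 CPM) still overlapped Aβ RA-LTMRs (422.7 to 473.9 CPM). Mean Ntrk3 was nearly the same in Aβ Field-LTMRs (194.7 CPM) and Aβ SA1-LTMRs (193.7 CPM), which share its reporter. Npy2r was highest in peptidergic nociceptors and Ret in C-LTMRs, so these genes do not check the Aβ RA- and the Aβ SA1- and Field-LTMR labels.

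Metabotropic glutamate receptors are G protein-coupled receptors that sense glutamate with a large extracellular domain. Group I receptors, of which Grm5 is one, couple to Gq and phospholipase C, whereas group II (Grm2, Grm3) and group III (Grm4, Grm6, Grm7, Grm8) couple to Gi and Go proteins and often sit on axon terminals, where they lower transmitter release. The GABA-B receptor is an obligate pair: Gabbr1 binds GABA, and Gabbr2 carries the complex to the surface and engages Gi and Go. On the central terminals of sensory neurons GABA-B receptors are known for presynaptic inhibition, through calcium channels that they close.

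The 8 genes lie on 6 chromosomes in GENCODE M21 (GRCm38, the mm10 build): Grm2 at chr9:106643095-106656082, Grm3 at chr5:9485541-9725170, Grm4 at chr17:27422387-27521403, Grm5 at chr7:87584168-88134907, Grm7 at chr6:110645581-111567230, Grm8 at chr6:27275119-28135178, Gabbr1 at chr17:37045966-37075067 and Gabbr2 at chr4:46662305-46991873. Grm5, Grm7 and Gabbr1 are on the plus strand and the others on the minus strand. Exons of Grm7 share 130 bases (2.21%) with the antisense gene Gm20387, which had 2659 counts over all libraries, and exons of Grm2 share 470 bases (9.60%) with the antisense gene Gm28111. Whether the counting used strand is not given in the sources used here, so reads in these stretches cannot be assigned to one gene.

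Promoter windows are shown for Grm7 and Grm8, the pair of group III genes on chromosome 6, one of which was lower and the other higher in the A-fibre subtypes. Each window holds 250 bases before and 50 after a RefSeq start (GRCm38.p6), and 6 of the 8 genes had such an entry. Grm7 had 2 windows and Grm8 had 3, and the one richest in the dinucleotide CG is shown for each. Capitals mark matches on either strand to the CCAAT box (CCAAT, or ATTGG on the other strand), the GC box (GGGCGG, or CCGCCC) and the TATA box (TATAAA, or TTTATA). The Grm7 window is chr6:110645348-110645647 (plus strand) and the Grm8 window chr6:28135097-28135396 (minus strand), each 5′ to 3′ along its gene.
Grm7: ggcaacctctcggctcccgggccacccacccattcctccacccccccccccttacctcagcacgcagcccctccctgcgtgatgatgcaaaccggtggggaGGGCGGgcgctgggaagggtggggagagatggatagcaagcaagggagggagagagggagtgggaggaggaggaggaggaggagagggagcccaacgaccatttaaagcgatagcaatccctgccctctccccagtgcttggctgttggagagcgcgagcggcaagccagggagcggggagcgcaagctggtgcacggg
Grm8: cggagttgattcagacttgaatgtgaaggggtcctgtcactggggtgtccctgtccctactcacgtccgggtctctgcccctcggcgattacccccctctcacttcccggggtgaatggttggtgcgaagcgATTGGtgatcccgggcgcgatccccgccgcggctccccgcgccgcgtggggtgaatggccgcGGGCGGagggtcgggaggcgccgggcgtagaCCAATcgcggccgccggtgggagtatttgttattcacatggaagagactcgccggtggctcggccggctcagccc
The Grm7 window shown held 1 GC box match and the Grm8 window shown 1 GC box and 2 CCAAT matches. No matches overlapped, and TATAAA was in neither window. Of 32851 mouse promoter windows of this length, 35.7% held a GC box match, 37.4% a CCAAT match and 13.6% a TATAAA match. CG occurred 15 times in the Grm7 window shown and 33 times in the Grm8 window shown, against a median of 7 over all windows. The other Grm7 window, which overlaps the one shown, held 10 CG and 1 GC box match. The other Grm8 windows held 10 CG with 1 CCAAT match and 2 CG with no match to any of the motifs. These matches describe letters and not sites of binding.

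Levels within a gene are given as CPM (counts scaled to library size, with TMM factors), each value from 1 library, in order of library number. All 8 genes differed among the 8 subtypes (edgeR quasi-likelihood F test, Benjamini-Hochberg adjusted p from 7.7e-14 for Grm4 to 0.00874 for Grm2), as did 78.3% of all genes tested. Pairs of subtypes passed at an adjusted p under 0.05 and a log2 fold change (log2FC) of at least 1, with the adjustment over all genes and all 28 pairs together. The 8 genes passed in 90 of 224 gene-by-pair tests (40.2%), against 21.9% over all genes. Grm4 and Grm8 passed in 19 pairs each, Grm5 and Grm7 in 18 each, Grm3 in 12, Grm2 in 3, Gabbr1 in 1 and Gabbr2 in 0 by edgeR (Gabbr2 in 4 with limma on log2(RPKM + 0.1) or log2(RPKM + 1)). On log2(RPKM + 1), a scale that shrinks the changes of low genes, Grm5, Grm3 and Grm2 passed in 0 pairs each. With the read-length class as a covariate Grm5 passed in 13 pairs, Grm3 in 8 and Grm2 in 1. None of the 8 was enriched by edgeR in a single subtype over each of the other 7, against 5.8% of all genes; limma on log2(RPKM + 0.1) called 1, Grm4 in Aδ-LTMRs. In the contrast of the A-fibre with the small-fibre subtypes, 2 of the 8 genes were higher, Grm4 and Grm8, against 15.6% of all genes, and 1 was lower, Grm7, against 12.9%. All 3 belong to group III.

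**Figure D1:**
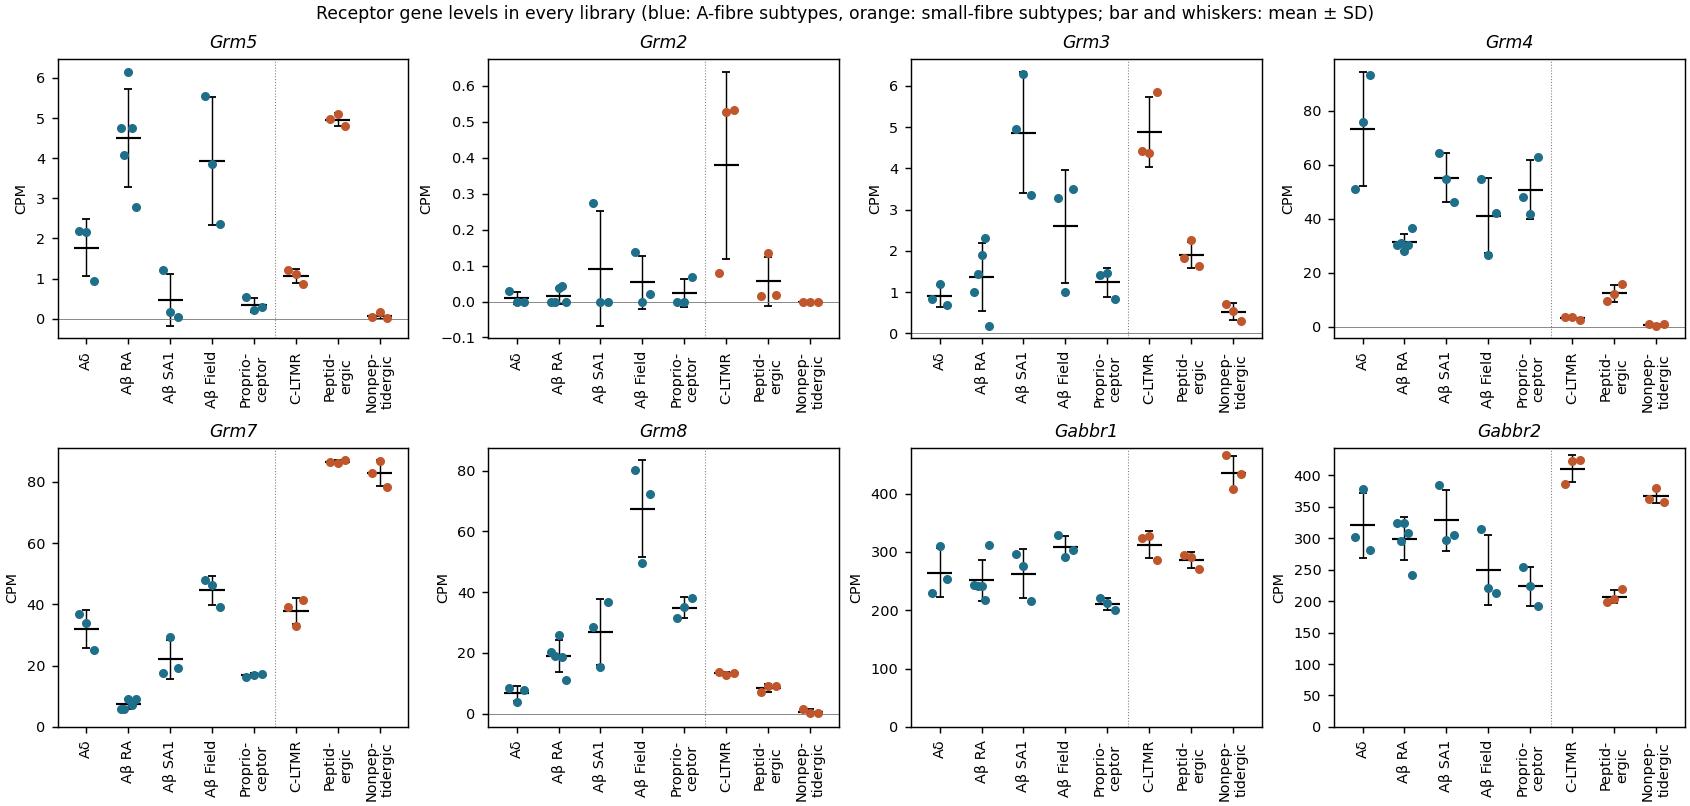
Level of each receptor gene (CPM, linear axes that differ between panels) in each of the 26 libraries, A-fibre subtypes in blue and small-fibre subtypes in orange; points are libraries, bars means and whiskers SD (n = 3, or 5 for Aβ RA-LTMRs). All 17 A-fibre libraries lie above all 9 small-fibre libraries for Grm4, whereas Grm7 is highest in both nociceptor subtypes and Gabbr1 and Gabbr2 are present in every library.

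Grm5, the group I receptor, stood near 4 to 5 CPM in 3 subtypes of unlike kind: peptidergic nociceptors, Aβ RA-LTMRs and Aβ Field-LTMRs. It was 4.97, 5.11 and 4.80 CPM in peptidergic nociceptors, 4.75, 4.08, 6.15, 4.75 and 2.78 CPM in Aβ RA-LTMRs and 5.56, 3.85 and 2.36 CPM in Aβ Field-LTMRs. These 3 groups overlapped, and no pair of them passed. Aδ-LTMRs followed at 2.19, 2.16 and 0.950 CPM, and C-LTMRs at 1.22, 1.11 and 0.865 CPM. In Aβ SA1-LTMRs it was 1.21, 0.171 and 0.0318 CPM, in proprioceptors 0.544, 0.219 and 0.288 CPM, and in nonpeptidergic nociceptors 0.0356, 0.162 and 0.0166 CPM. The lowest of these values rest on few reads, with 10 counts in all over the 3 libraries of nonpeptidergic nociceptors and 79, 8 and 2 counts in those of Aβ SA1-LTMRs.

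Peptidergic nociceptors had far more Grm5 than nonpeptidergic nociceptors (log2FC 6.18, SE 0.87, edgeR adjusted p = 4.0e-06; 0.76 on log2(RPKM + 1)). Among the mechanoreceptors, Grm5 was higher in Aβ RA-LTMRs than in Aβ SA1-LTMRs (log2FC 3.23, SE 0.68, edgeR adjusted p = 5.8e-04). It was also higher in Aβ Field-LTMRs than in Aβ SA1-LTMRs (log2FC 3.03, SE 0.71, edgeR adjusted p = 0.00166). Field and SA1 neurons carry the same alleles but differ in tamoxifen schedule and read-length class, which cannot be told apart from subtype. Both log2FC values were larger without Aβ SA1-LTMR library 1, at 5.52 for Aβ RA-LTMRs and 5.32 for Aβ Field-LTMRs. With the read-length class as a covariate they were 3.38 and 3.44 (edgeR adjusted p = 7.1e-04 and 0.0123), and on log2(RPKM + 1) 0.62 and 0.40, short of the size threshold. It was also higher in Aβ RA-LTMRs than in proprioceptors (log2FC 3.75, SE 0.72, edgeR adjusted p = 2.2e-04). Grm5 averaged 2.20 CPM in A-fibre and 2.03 CPM in small-fibre subtypes. The low nonpeptidergic nociceptors weigh more in the log2FC, which averages subtypes on the log scale, than in these means. Over the fibre classes its log2FC of 0.96 (SE 0.38, edgeR adjusted p = 0.0363) fell short of the size threshold. Over the omissions of single libraries it ran from 0.49 without Aβ SA1-LTMR library 1 (adjusted p = 0.159) to 1.37 without nonpeptidergic nociceptor library 2 (adjusted p = 0.00991), and it passed in 6 of them. It was 0.64 with the read-length class as a covariate (adjusted p = 0.240), 0.01 on log2(RPKM + 0.1) (limma adjusted p = 0.973) and 2.32 with the satellite glia score described below as a covariate (adjusted p = 0.0510).

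Grm2 was at the limit of detection. It had 70 counts in C-LTMRs (3, 27 and 40 per library), 18 in Aβ SA1-LTMRs, all from library 1, 9 in peptidergic nociceptors, 7 in Aβ Field-LTMRs, 4 in proprioceptors, 3 in Aβ RA-LTMRs, 1 in Aδ-LTMRs and 0 in nonpeptidergic nociceptors. Of the 26 libraries, 13 had at least 1 count. Against a floor of 3 counts over the group of nonpeptidergic nociceptors (0.0188 CPM), the pooled level in C-LTMRs (0.426 CPM) was 22.7-fold. This fold leaves out the spread among the C-LTMR libraries, which ran from 0.0794 to 0.532 CPM. The 3 pairs that passed set C-LTMRs against nonpeptidergic nociceptors, Aβ RA-LTMRs and Aδ-LTMRs (edgeR adjusted p = 0.0070, 0.0115 and 0.0295), and 0 of the 28 pairs passed with the satellite glia covariate. Without any one of the 3 Aβ SA1-LTMR libraries, 5 pairs passed.

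Grm3, the other group II receptor, was low in every subtype and led by C-LTMRs and Aβ SA1-LTMRs. It stood at 4.42, 4.37 and 5.85 CPM in C-LTMRs and 4.95, 6.30 and 3.36 CPM in Aβ SA1-LTMRs, and these groups overlapped (log2FC 0.01, SE 0.52, edgeR adjusted p = 0.997). Aβ Field-LTMRs had 3.277, 1.014 and 3.499 CPM and peptidergic nociceptors 1.82, 2.26 and 1.64 CPM. By edgeR neither differed from the leading pair by enough to pass, with C-LTMRs over peptidergic nociceptors at a log2FC of 1.36 (SE 0.53, edgeR adjusted p = 0.0540). That pair lay at the threshold, and it passed with DESeq2 (1.35, adjusted p = 0.0272), on log2(RPKM + 0.1) (1.21, limma adjusted p = 0.0439) and without Aβ RA-LTMR library 5 (adjusted p = 0.0134) or Aβ Field-LTMR library 2 (adjusted p = 0.0444). Aβ SA1-LTMRs over Aβ Field-LTMRs, at a log2FC of 0.86 (edgeR adjusted p = 0.229), passed on log2(RPKM + 0.1) as well (1.22, limma adjusted p = 0.0433).
Grm3 was lowest in nonpeptidergic nociceptors, at 0.713, 0.555 and 0.298 CPM, and C-LTMRs exceeded them by a log2FC of 3.22 (SE 0.58, edgeR adjusted p = 1.1e-04). Aβ RA-LTMRs (0.187 to 2.31 CPM, median 1.44), proprioceptors (0.829 to 1.47 CPM) and Aδ-LTMRs (0.679 to 1.19 CPM) overlapped each other, and C-LTMRs passed over each of them. With the satellite glia covariate 7 of the 28 pairs passed for Grm3, against 12. Between the fibre classes Grm3 differed by a log2FC of 0.10 (SE 0.27, edgeR adjusted p = 0.793), and the sign of this value changed with the processing.

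Grm4, a group III receptor, was the gene of the 8 that separated the fibre classes most fully. It stood at 51.2, 75.8 and 93.2 CPM in Aδ-LTMRs, 64.5, 54.9 and 46.4 CPM in Aβ SA1-LTMRs, and 47.9, 41.7 and 62.8 CPM in proprioceptors. It was 54.7, 26.8 and 42.2 CPM in Aβ Field-LTMRs and 30.2, 31.0, 27.99, 30.3 and 36.8 CPM in Aβ RA-LTMRs. Peptidergic nociceptors had 9.55, 12.01 and 15.8 CPM, C-LTMRs 3.73, 3.66 and 2.65 CPM and nonpeptidergic nociceptors 0.998, 0.416 and 0.961 CPM. Each of the 17 A-fibre libraries was above each of the 9 small-fibre libraries, which held for 2.85% of all genes tested. The A-fibre subtypes exceeded the small-fibre subtypes by a log2FC of 3.91 (SE 0.17, edgeR adjusted p = 4.3e-16). In bulk RNA, fewer cells that express a gene and less RNA per cell cannot be told apart.

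Within the A-fibre subtypes the order of Grm4 was less firm. Aδ-LTMRs led on the mean but did not pass over Aβ SA1-LTMRs (log2FC 0.41, SE 0.27, edgeR adjusted p = 0.259; 1.04 on log2(RPKM + 0.1), limma adjusted p = 0.00658) or proprioceptors (log2FC 0.53, SE 0.27, edgeR adjusted p = 0.136). They passed over Aβ RA-LTMRs (log2FC 1.23, SE 0.23, edgeR adjusted p = 2.0e-04), and the value was 1.55 without Aδ-LTMR libraries 1 and 2. The small-fibre subtypes, in contrast, each differed from the others. Peptidergic nociceptors were higher than C-LTMRs (log2FC 1.90, SE 0.28, edgeR adjusted p = 9.2e-06), and C-LTMRs were higher than nonpeptidergic nociceptors (log2FC 2.05, SE 0.31, edgeR adjusted p = 9.9e-06).

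Grm7, another group III receptor and one with low affinity for glutamate, ran the other way. It was 86.6, 86.1 and 87.1 CPM in peptidergic and 83.1, 87.0 and 78.4 CPM in nonpeptidergic nociceptors, a difference within the spread (log2FC 0.06, SE 0.20, edgeR adjusted p = 0.840). Aβ Field-LTMRs (48.0, 46.4 and 39.3 CPM), C-LTMRs (39.1, 33.0 and 41.5 CPM) and Aδ-LTMRs (36.8, 33.9 and 25.1 CPM) formed an intermediate set in which no pair passed. Aβ SA1-LTMRs had 17.7, 29.5 and 19.2 CPM and proprioceptors 16.2, 17.1 and 17.3 CPM. Aβ RA-LTMRs were lowest, at 5.91, 5.86, 9.26, 7.20 and 9.06 CPM, below every library of every other subtype.

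Peptidergic nociceptors exceeded Aβ RA-LTMRs in Grm7 by a log2FC of 3.54 (SE 0.18, edgeR adjusted p = 1.6e-13). The nearest subtype, proprioceptors, still passed over Aβ RA-LTMRs (log2FC 1.18, SE 0.17, edgeR adjusted p = 8.9e-06). Between peptidergic nociceptors and Aβ Field-LTMRs the log2FC of 0.96 (SE 0.20, edgeR adjusted p = 5.2e-04) was short of the size threshold. Over the fibre classes Grm7 was lower in the A-fibre subtypes (log2FC -1.63, SE 0.10, edgeR adjusted p = 1.7e-13), although the A-fibre libraries (5.86 to 48.0 CPM) and the small-fibre libraries (33.0 to 87.1 CPM) overlapped.

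Grm8, the remaining group III receptor, peaked in Aβ Field-LTMRs at 80.3, 49.6 and 72.4 CPM. Proprioceptors had 31.3, 35.0 and 38.1 CPM, Aβ SA1-LTMRs 28.6, 15.3 and 36.9 CPM and Aβ RA-LTMRs 20.3, 19.0, 25.7, 18.6 and 10.96 CPM. These 3 subtypes overlapped or did not pass against each other. Grm8 was 13.7, 12.6 and 13.4 CPM in C-LTMRs, 7.01, 9.24 and 9.14 CPM in peptidergic nociceptors and 1.497, 0.116 and 0.149 CPM in nonpeptidergic nociceptors. Aδ-LTMRs, at 8.39, 3.83 and 7.78 CPM, stood apart from the other A-fibre subtypes and below C-LTMRs on the mean, without passing (log2FC of C-LTMRs over Aδ-LTMRs 0.98, SE 0.47, edgeR adjusted p = 0.116).

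Aβ Field-LTMRs exceeded nonpeptidergic nociceptors in Grm8 by a log2FC of 6.81 (SE 0.61, edgeR adjusted p = 2.7e-09) and Aδ-LTMRs by 3.33 (SE 0.51, edgeR adjusted p = 1.2e-05). Against proprioceptors the log2FC was 0.95 (SE 0.46, edgeR adjusted p = 0.120). Against Aβ SA1-LTMRs it was 1.33 (SE 0.47, edgeR adjusted p = 0.0310). That call was lost without Aβ SA1-LTMR library 1 (adjusted p = 0.0567) or 2 (adjusted p = 0.132), without Aβ Field-LTMR library 1 (adjusted p = 0.0867) or 3 (adjusted p = 0.0671), without the low-count filter (adjusted p = 0.111), and with limma on log2(RPKM + 0.1) (1.04, adjusted p = 0.0868) or log2(RPKM + 1) (0.94). It was 1.88 with the read-length class as a covariate (adjusted p = 0.0456). The A-fibre subtypes exceeded the small-fibre subtypes by a log2FC of 2.56 (SE 0.27, edgeR adjusted p = 1.1e-08). Their mean levels were 30.9 CPM in A-fibre and 7.43 CPM in small-fibre subtypes. Nonpeptidergic nociceptors, at 0.587 CPM on average, weigh more in the log2FC, which averages subtypes on the log scale, than in these means. Libraries of the 2 classes overlapped, at 3.83 to 80.3 CPM for A-fibre and 0.116 to 13.7 CPM for small-fibre. Neither Aβ SA1-LTMRs (log2FC 1.025, edgeR adjusted p = 0.0957) nor Aβ RA-LTMRs (0.517, edgeR adjusted p = 0.376) passed over C-LTMRs.

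Levels of different genes were compared on the deposited RPKM, which are scaled to gene length, but not by a factor that was the same in every library. In Aδ-LTMR library 2, Gabbr2 and Gabbr1 had 378.3 and 310.9 CPM but 64.66 and 76.55 RPKM. In Aβ SA1-LTMR library 3 they had 304.8 and 215.2 CPM and 124.7 and 49.71 RPKM. Shares and ratios of RPKM hold such differences as well, and their cause was not tested. Grm4, Grm7 and Grm8 together made up 89.8% to 99.8% of the summed RPKM of the 6 glutamate receptor genes in every library. Grm4 took 78.7% ± 6.08 of it in Aδ-LTMRs, 54.8% ± 8.76 in proprioceptors, 51.4% ± 4.66 in Aβ SA1-LTMRs, 50.4% ± 8.02 in Aβ RA-LTMRs and 34.6% ± 5.30 in Aβ Field-LTMRs (SD). In those Aβ Field-LTMRs Grm8 held 39.5% ± 6.36. The small-fibre subtypes were led by Grm7 in every library, with 97.7% ± 1.28 in nonpeptidergic nociceptors, 75.2% ± 3.53 in peptidergic nociceptors and 60.9% ± 2.07 in C-LTMRs.

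**Figure D2:**
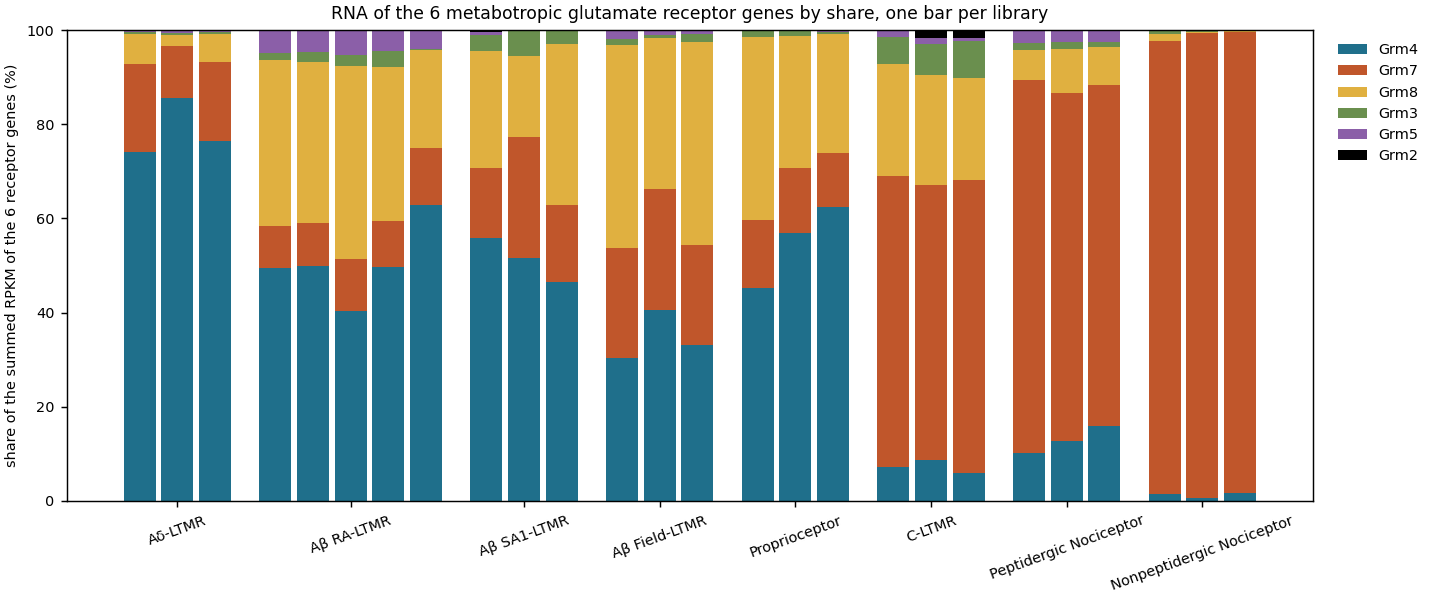
Share of the summed RPKM of the 6 glutamate receptor genes taken by each (%), a stacked bar per library grouped by subtype. Grm4 takes 78.7% on average in Aδ-LTMRs, and Grm7 takes 97.7% in nonpeptidergic nociceptors.

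Gabbr1, the GABA-binding subunit, was present in all 26 libraries and varied far less than the glutamate receptors. It was 465, 407 and 433 CPM in nonpeptidergic nociceptors, 323, 328 and 286 CPM in C-LTMRs, 329, 292 and 304 CPM in Aβ Field-LTMRs and 296, 292 and 271 CPM in peptidergic nociceptors. Aδ-LTMRs had 229, 311 and 253 CPM, Aβ SA1-LTMRs 296, 276 and 215 CPM, Aβ RA-LTMRs 243, 242, 242, 218 and 312 CPM and proprioceptors 221, 212 and 200 CPM. The 3 libraries of nonpeptidergic nociceptors lay above all others, and adjusted p-values against the other 7 subtypes ran from 5.9e-06 to 0.0155 (edgeR). Only the pair with proprioceptors reached the size threshold (log2FC 1.05, SE 0.15, edgeR adjusted p = 5.9e-06), and it no longer did under 6 of 9 other settings, with values from 0.87 with the satellite glia covariate to 0.99 under RLE size factors, in DESeq2 and without both Aδ-LTMR libraries 1 and 2. It was 0.95 on log2(RPKM + 0.1) and 0.93 on log2(RPKM + 1). Nor did it pass without Aδ-LTMR library 1, Aδ-LTMR library 2 or Aβ SA1-LTMR library 2 (each 1.00, just under the threshold of 1). On the deposited RPKM the order at the top turned, with 94.2 ± 10.99 RPKM in nonpeptidergic nociceptors and 110 ± 7.14 RPKM in C-LTMRs (SD, n = 3 each).

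Gabbr2, the subunit that couples to G proteins, was highest in C-LTMRs, at 386, 422 and 424 CPM, and nonpeptidergic nociceptors, at 363, 380 and 358 CPM (log2FC 0.16, SE 0.16, edgeR adjusted p = 0.487). Aβ SA1-LTMRs had 384, 297 and 305 CPM, Aδ-LTMRs 302, 378 and 281 CPM, Aβ RA-LTMRs 324, 295, 324, 309 and 242 CPM and Aβ Field-LTMRs 314, 221 and 213 CPM. Proprioceptors (254, 224 and 192 CPM) and peptidergic nociceptors (199, 204 and 219 CPM) were lowest and overlapped. C-LTMRs over peptidergic nociceptors came nearest to passing, with a log2FC of 0.99 (SE 0.17, edgeR adjusted p = 4.2e-05). It passed without peptidergic library 3 or C-LTMR library 1, with 1.03 in each case, and with limma on log2(RPKM + 0.1) (1.09, adjusted p = 0.00463) and log2(RPKM + 1) (1.08, adjusted p = 0.00482).

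Over the fibre classes neither subunit reached a 2-fold difference. The A-fibre subtypes were below the small-fibre subtypes in Gabbr1 by a log2FC of -0.40 (SE 0.08, edgeR adjusted p = 7.2e-05) and in Gabbr2 by -0.16 (SE 0.08, edgeR adjusted p = 0.0942). The ratio of Gabbr2 to Gabbr1 RPKM was between 0.845 and 2.51 in single libraries. These ends were Aδ-LTMR library 2 and Aβ SA1-LTMR library 3, where RPKM and CPM differed as given above. Its subtype means were lowest in peptidergic nociceptors (1.02 ± 0.101) and highest in Aβ SA1-LTMRs (1.73 ± 0.702) and C-LTMRs (1.63 ± 0.307). The summed RPKM of both subunits was 3.13 to 21.0 times that of the 6 glutamate receptor genes, and C-LTMRs had the highest mean ratio (18.96 ± 1.95).

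**Figure D3:**
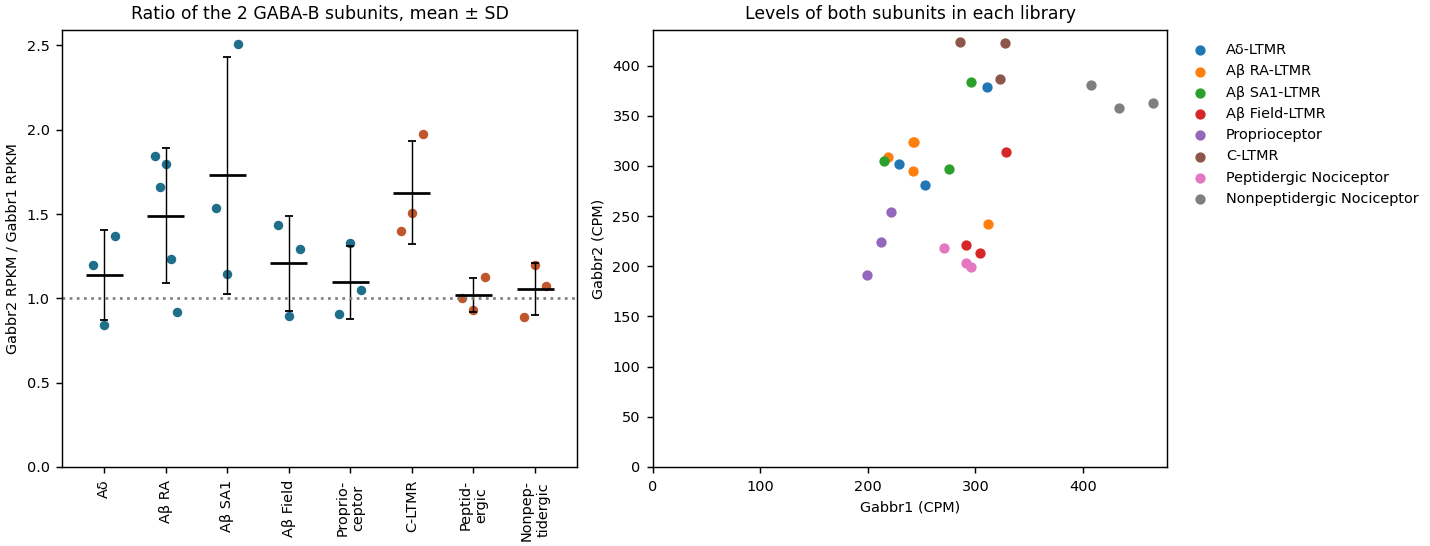
Left, ratio of Gabbr2 to Gabbr1 RPKM by subtype, with points for libraries, bars for means and whiskers for SD; right, Gabbr2 against Gabbr1 level (CPM) in each of the 26 libraries. Ratios run from 0.845 to 2.51, and the lowest levels are 199.6 CPM for Gabbr1 and 191.6 CPM for Gabbr2.

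The levels of some of these genes moved together over the 26 libraries, which share the normalization and fall into 8 groups. Pearson's r on log2 CPM was 0.74 for Grm4 with Grm8, -0.55 for Grm4 with Grm7, -0.73 for Grm4 with Gabbr1 and 0.64 for Grm7 with Gabbr1. For Gabbr1 with Gabbr2 it was 0.42. Among 10756 genes, those most like Grm4 were Gpr158 (r = 0.97), Lynx1 (0.96) and Bai2 (0.96). For Grm7 they were Tmcc3 (r = 0.95), Fnbp1l (0.95) and Syt4 (0.94), and for Grm8 Caln1 (0.94), Airn (0.93) and Cacng5 (0.92). Airn is an antisense RNA, so its reads may not be its own where counting ignored strand. Grm5 was closest to Ryr3 (r = 0.91), Oprk1 (0.90) and Nkd1 (0.88), Grm3 to Smg6 (0.84), Bicd2 (0.83) and Dock3 (0.83), and Grm2 to Trim62 (0.73), Npc1l1 (0.73) and Efr3b (0.72). Gabbr1 was closest to Mfsd9 (r = 0.90), Aacs (0.89) and Actn1 (0.89), and Gabbr2 to Ttc9 (0.86), Brap (0.86) and Cep120 (0.85).

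RNA of satellite glia, which wrap sensory neuron somata, also differed between the fibre classes. All 9 satellite glia markers were higher on the mean in the A-fibre subtypes, and none was at 0 in any library. Their summed level was 768 to 4187 CPM (median 1763) in the A-fibre and 337 to 1107 CPM (median 711) in the small-fibre libraries. Over the 26 libraries the mean log2 CPM of these markers had an r of 0.80 with Grm4, 0.63 with Grm8, -0.61 with Grm7 and -0.80 with Gabbr1. With this score as a covariate the A-fibre log2FC was 3.99 for Grm4 (edgeR adjusted p = 8.9e-09), 3.16 for Grm8 (edgeR adjusted p = 4.9e-04) and -1.98 for Grm7 (edgeR adjusted p = 1.4e-06). Gabbr1 no longer passed the F test with it (edgeR adjusted p = 0.136). The score itself differed by subtype, at 3.84 to 4.35 in nonpeptidergic nociceptors and 5.07 to 7.22 in A-fibre libraries. The covariate therefore cannot tell glial RNA from subtype, and the part of glial RNA in these levels was not tested. Aδ-LTMRs also had the highest mean scores of endothelial cells, 2.19 ± 0.348 (SD, n = 3) on the log2 CPM scale, where the other subtype means were at most -0.59, and of pericytes and smooth muscle, 3.18 ± 0.545 against at most 1.58. Their fibroblast score was 3.11 ± 0.231, against at most 2.24, and their myelinating Schwann cell score 3.67 ± 0.966 (2.57 to 4.33), against at most 3.15. Between the fibre classes, the median summed level of Schwann cell markers was 744 CPM in A-fibre and 1854 CPM in small-fibre libraries. For pericytes and smooth muscle it was 16.6 and 79.6 CPM. Still, 7 of the 9 Schwann cell and 3 of the 5 pericyte and smooth muscle markers were higher on the mean in the A-fibre subtypes. The part of these cell types in the Grm4 and Grm8 levels of Aδ-LTMRs was not tested.

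**Figure D4:**
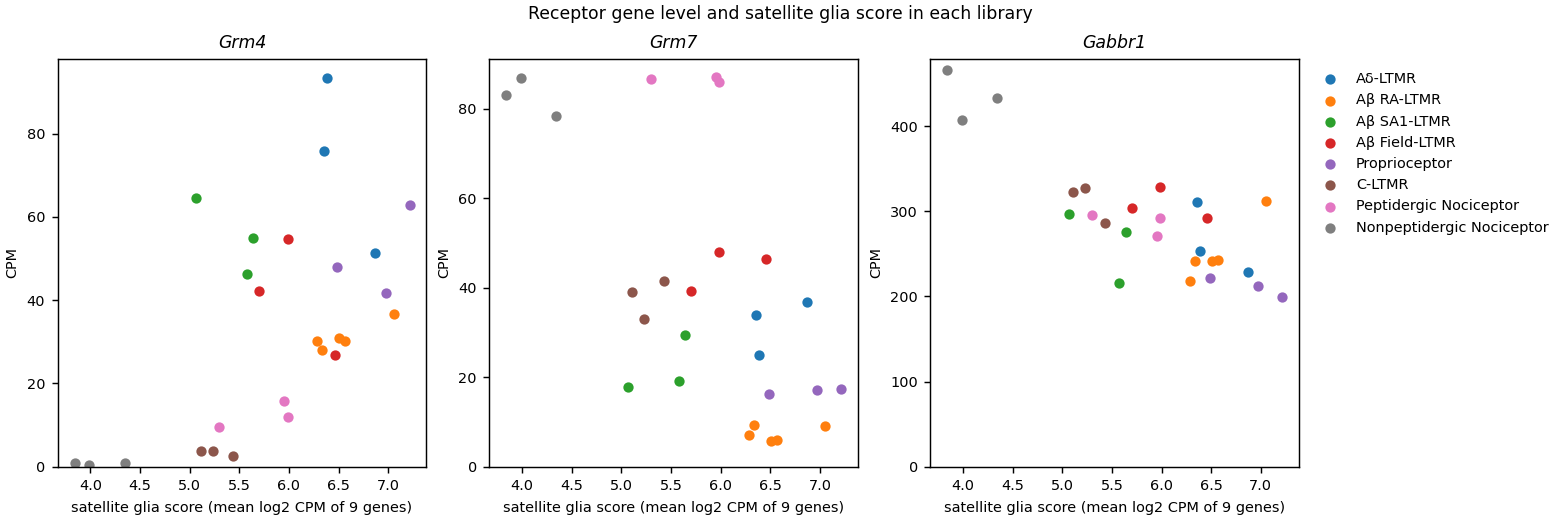
Level (CPM) of Grm4, Grm7 and Gabbr1 against the satellite glia score (mean log2 CPM of 9 genes) in each of the 26 libraries, coloured by subtype. Pearson's r is 0.80 for Grm4, -0.61 for Grm7 and -0.80 for Gabbr1, and the A-fibre libraries have most of the high scores.

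Genes that transduce, anchor or supply these receptors were described from 46 listed genes, of which 44 were tested. In the A-fibre contrast 11 of the 44 were higher (25.0%), against 15.6% of all genes, and 9 were lower, against 12.9%. The median log2FC of the 44 was -0.25, against 0.02 over all genes. With the satellite glia covariate 6 were higher and 9 lower. On log2(RPKM + 1) 4 were higher, and Kctd12, Kctd12b, Kcnj3, Kcnj6, Elfn2 and Slc6a11 were among those short of the size threshold.

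Of 8 genes for group I receptor scaffolds, Gq-type alpha subunits and phospholipase C, 1 passed as higher in the A-fibre subtypes and 2 as lower. The scaffold genes Homer1, Homer2 and Homer3 did not pass. Plcb3, a phospholipase C, averaged 34.3 CPM in A-fibre and 375 CPM in small-fibre subtypes (log2FC -3.14, SE 0.14, edgeR adjusted p = 3.6e-16). Gnaq, the Gq alpha subunit, was also lower (log2FC -1.80), and Plcb4 was higher (log2FC 1.03), a call that was lost in 5 of 9 other settings, where its values ran from 0.69 on log2(RPKM + 1) to 0.98 with the glia covariate.

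Of 5 inhibitory G protein alpha subunits, Gnao1, Gnai3 and Gnai2 were lower in the A-fibre subtypes and Gnai1 was higher. Gnao1, the alpha subunit of Go, averaged 533 CPM in A-fibre and 1931 CPM in small-fibre subtypes (log2FC -1.86, SE 0.09, edgeR adjusted p = 2.0e-15). Gnai1 averaged 297 CPM in A-fibre and 145 CPM in small-fibre subtypes (log2FC 1.09, SE 0.09, edgeR adjusted p = 1.6e-10). With the glia covariate its value was 0.98, on log2(RPKM + 0.1) 0.84 and on log2(RPKM + 1) 0.81, each short of the size threshold.

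The KCTD proteins bind the GABA-B receptor and set the kinetics of its response. Kctd12 averaged 3.46 CPM in A-fibre and 0.615 CPM in small-fibre subtypes (log2FC 2.50, SE 0.33, edgeR adjusted p = 4.1e-07), and Kctd12b 2.05 CPM in A-fibre and 0.450 CPM in small-fibre subtypes (log2FC 2.31, SE 0.49, edgeR adjusted p = 2.8e-04). Neither passed with the glia covariate, where Kctd12 had a log2FC of 1.45 (adjusted p = 0.136) and Kctd12b -1.0 (adjusted p = 0.396). Kctd16 averaged 8.16 CPM in A-fibre and 25.7 CPM in small-fibre subtypes (log2FC -1.97, SE 0.15, edgeR adjusted p = 3.5e-11). Kctd8 had a log2FC of -0.60 (SE 0.11, edgeR adjusted p = 7.0e-05), short of the size threshold.

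Among the effector channels, Cacna1b, the pore of N-type calcium channels, averaged 114 CPM in A-fibre and 382 CPM in small-fibre subtypes (log2FC -1.86, SE 0.12, edgeR adjusted p = 3.6e-13). Kcnj3, a subunit of G protein-gated potassium channels, averaged 28.5 CPM in A-fibre and 11.98 CPM in small-fibre subtypes (log2FC 1.52, SE 0.23, edgeR adjusted p = 2.9e-06), and did not pass with the glia covariate (0.88, adjusted p = 0.282). Kcnj6, another such subunit, was at 17.5 ± 1.24 CPM in C-LTMRs (SD, n = 3) and at most 2.71 CPM on average in every other subtype.

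Of 10 anchors and extracellular partners, 3 were higher in the A-fibre subtypes and none passed as lower. Elfn1, an adhesion protein that binds group III receptors across the synapse, averaged 48.4 CPM in A-fibre and 23.4 CPM in small-fibre subtypes (log2FC 2.05, SE 0.13, edgeR adjusted p = 3.3e-13). It did not split the classes, since peptidergic nociceptors had 57.3 ± 4.73 CPM and proprioceptors 16.8 ± 4.57 CPM. Nonpeptidergic nociceptors were lowest, at 1.58 ± 0.0667 CPM, and weigh more in the log2FC, which averages subtypes on the log scale, than in the mean CPM. Elfn2 (log2FC 2.10, SE 0.35, edgeR adjusted p = 1.1e-05) and Grasp, a receptor-anchoring scaffold (log2FC 3.46, SE 0.28, edgeR adjusted p = 4.8e-11), were the others.

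Of the 3 transporters that load glutamate into vesicles, 1 passed as higher in the A-fibre subtypes, 1 as lower and 1 did not pass. Slc17a6, which did not, averaged 379.5 CPM in A-fibre and 390.3 CPM in small-fibre subtypes (log2FC -0.22, SE 0.09, edgeR adjusted p = 0.0443). Slc17a7 averaged 183 CPM in A-fibre and 3.92 CPM in small-fibre subtypes (log2FC 5.62, SE 0.19, edgeR adjusted p = 1.4e-17). Slc17a8 was concentrated in C-LTMRs, at 167 ± 4.81 CPM (SD, n = 3), and averaged 4.02 CPM or less in the others. Its A-fibre log2FC was -2.74, and -2.73 with the glia covariate (adjusted p = 0.0632). Slc1a1, a glutamate uptake carrier, was higher in the A-fibre subtypes (log2FC 3.22, SE 0.28, edgeR adjusted p = 2.5e-10). Slc6a11, a GABA uptake carrier, passed as well (log2FC 1.64), but had -0.27 with the glia covariate (adjusted p = 0.850).

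**Figure D5:**
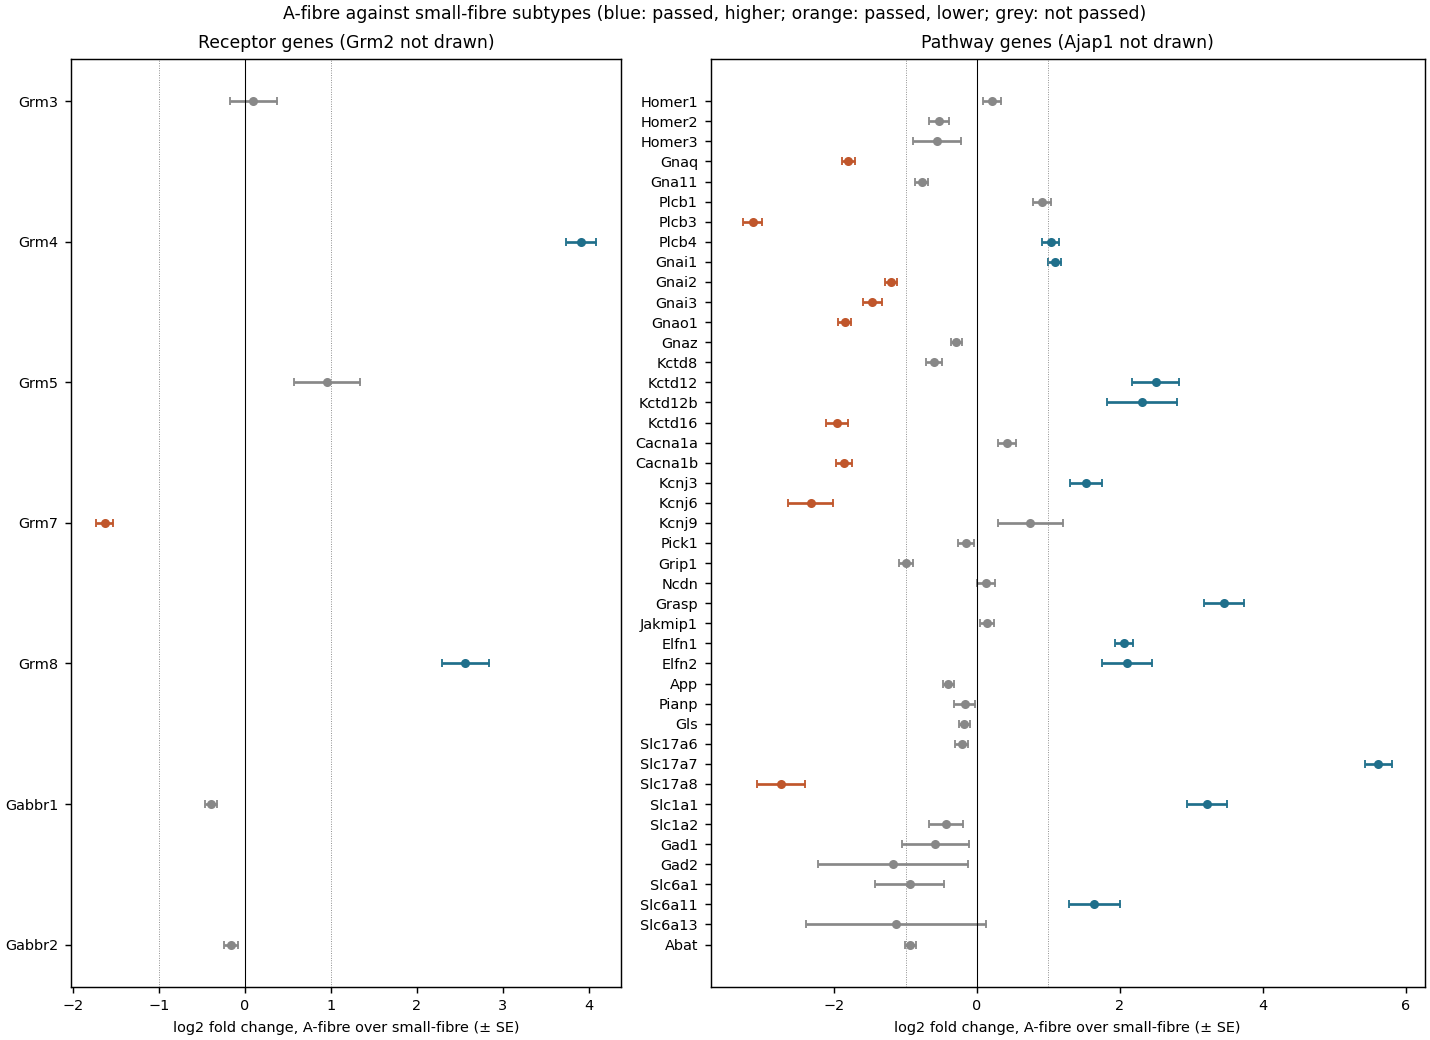
log2 fold change of the A-fibre over the small-fibre subtypes with its SE for the receptor genes (left) and the listed partner genes (right), coloured by whether the gene passed as higher (blue), passed as lower (orange) or did not pass (grey). Grm4 (3.91) and Grm8 (2.56) lie to the right and Grm7 (-1.63) to the left, while Gabbr1 and Gabbr2 lie near 0; Grm2 and Ajap1 are not drawn.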

How the data were processed

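RNA of sorted dorsal root ganglion neurons, amplified before library preparation per the labels' protocols, gave 26 libraries. The authors deposited raw read counts per gene and RPKM per gene, together with an alignment summary whose mapping and exonic rates are a fraction of reads, whose mapped reads are a count, and whose GC content is a percent, per the file headers. The submitters' processing notes name FastQC 0.11.3, STAR, Cuffdiff, HTSeq 0.6.1, the mm10 build and DESeq2 1.14.1. The strand setting of the counting is not given in the sources used here.

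Counts were fitted over all 8 subtypes with edgeR 4.0.16 in R 4.3.3 (filterByExpr, TMM, robust quasi-likelihood, common dispersion 0.107), with Benjamini-Hochberg adjustment over 17411 genes, or over genes and 28 pairs together. A gene passed at an adjusted p under 0.05 and, for contrasts, an absolute log2FC of at least 1. The A-fibre contrast set the unweighted mean of 5 subtypes against that of 3, on the log scale of the fit. SE is the log2FC divided by the square root of F. CPM are counts over TMM-scaled library sizes, with 2 added as prior count for log2 CPM. A floor of 3 counts stood for a group without counts, and covers counting error only. RPKM served for levels between genes and, in limma 3.58.1, as an alternative on log2(RPKM + 0.1) and log2(RPKM + 1). DESeq2 1.42.0 was another alternative. Scripts were tested on simulated data.

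The receptor genes, the partner and marker lists and the tests were chosen with earlier results of these data known. All 8 receptor genes are named, with the partner genes of largest change in each list and the 3 genes most correlated with each receptor gene among those averaging at least 5 CPM in a subtype. The Kctd12 symbol has 2 identifiers in the files, and the current one was used. An item among the listed partner genes is not reported here, and the counts over the lists leave it out.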

Additional observations from a re-analysis of the deposited data

Results flagged for a closer look

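Within the 5 Aβ RA-LTMR libraries, Gabbr1 was 311.9 CPM in library 5, apart from the other 4, which ran from 218 to 243 CPM. The gap to the nearest library was 0.739 of the range, above Dixon's 95% critical value for 5 samples. Only this subtype has enough libraries for the check, which was made for each of the 8 receptor genes, and chance picks out about 1 in 20 groups. Library 5 also had the lowest share of exonic reads, 45.7%, and its part in this value was not tested.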

How the results depend on the processing

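Of 2625 comparisons of 75 values under 35 alternative settings, 2523 kept their direction and their side of the threshold or, for a count of calls, stayed within 1.5 times. Leaving out each library in turn gave 8 genes passing the F test, 2 to 3 higher and 1 lower in the A-fibre subtypes, 0 enriched, 82 to 94 calls over the pairs, and 11 partner genes higher and 9 to 11 lower. With limma on log2(RPKM + 0.1), 1 receptor gene was enriched, Grm4 in Aδ-LTMRs, against 0, and the median log2FC of all genes was -0.15, against 0.02. Calls over the pairs numbered 57 on log2(RPKM + 1), against 90, with 0 for Grm2, Grm3 and Grm5. Partner genes higher in A-fibre subtypes numbered 6 on log2(RPKM + 0.1), 4 on log2(RPKM + 1) and 6 with the satellite glia covariate, against 11. The A-fibre log2FC of Grm3 turned to -0.176 and -0.084 on the RPKM scales, to -0.063 with read-length class, and ranged from -0.004 to 0.191 over omissions. That of Grm5 was -0.018 on log2(RPKM + 1). With the glia covariate, the signs turned for Gabbr2 (0.18), Kctd12b (-1.0) and Slc6a11 (-0.27), for Grm3 in C-LTMRs over Aβ SA1-LTMRs (-0.23; omissions -0.198 to 0.232), for Grm5 in peptidergic nociceptors over Aβ RA-LTMRs (-0.68) and for Grm7 in peptidergic over nonpeptidergic nociceptors (-0.39). Gabbr1 in nonpeptidergic nociceptors over C-LTMRs was -0.23 on both RPKM scales. The cause was not tested. Same-numbered libraries did not vary together (84 pairs, r from -0.154 to 0.239), and 8 of 26 libraries correlated best with their own number. With the replicate block, 8, 2, 1 and 0 genes passed the F test, as higher, as lower and as enriched, 95 pairs were called, 11 and 10 partner genes passed as higher and lower, and Grm5 in peptidergic nociceptors over Aβ RA-LTMRs was -0.061. Grm3 then passed in 16 pairs, against 12, among them C-LTMRs over peptidergic nociceptors (1.376, adjusted p = 0.0171). Depth limits Grm2 and the low end of Grm5.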
